A study of Bos taurus with 10 samples.

Results

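A set of 32 genes of glucose metabolism was followed in single WT and *SOX2* KO early blastocysts of cattle. The set was chosen by gene symbol and covers glucose uptake, glycolysis, the handling of pyruvate and lactate, and the pentose phosphate pathway. All 32 symbols were found among the 20112 genes of the table, and all 32 entered the test over 20056 genes. The embryos were in vitro produced Bos taurus embryos injected as zygotes. The 5 WT embryos, labelled NC, received mRNA of BE3, a cytosine base editor, and no sgRNA. The 5 *SOX2* KO embryos received BE3 mRNA with a mixture of *SOX2* sgRNAs that install premature stop codons, so both groups carried the editor. The labels give an age of 7.0 days after fertilization for every embryo, whereas the study's methods place the collection later on the same day. Each KO embryo was edited on its own as a zygote, and the edits themselves were not analysed here. In the study, part of the cDNA of each sequenced embryo served to check its genotype. The study also reported similar total cell numbers for the sequenced embryos. In its wider counts, however, *SOX2* KO blastocysts had significantly fewer cells in total, at the day of collection and later. The labels do not say which embryos shared a culture, so p-values measure the spread between these embryos.

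Glucose enters cells through facilitative transporters of the SLC2A family, is phosphorylated by hexokinase and is cleaved in glycolysis to pyruvate. Pyruvate is either reduced to lactate, which leaves through monocarboxylate transporters of the SLC16A family, or oxidized to acetyl-CoA by the mitochondrial pyruvate dehydrogenase complex, which is switched off by the PDK kinases. The pentose phosphate pathway branches off after hexokinase and supplies NADPH and ribose. Mammalian embryos are known to rely on pyruvate and lactate during early cleavage and to take up more glucose from compaction to the blastocyst, with much of it going to lactate.

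Values are normalized read counts, that is reads per gene scaled by a DESeq2 size factor for each embryo. Embryos had 2223670 to 5134855 recovered reads on genes in WT and 2578284 to 4337342 in *SOX2* KO. The 18S ribosomal RNA gene *RN18S1* made up 26.4% to 37.0% of a WT library and 32.5% to 45.0% of a KO library. *SOX2* itself was at 56.5 to 93.4 in WT and 26.4 to 82.1 in KO embryos, with overlapping groups, and a transcript with an edited codon would still be counted. *XIST*, the RNA that coats the inactive X chromosome, was at 11.9 in the WT embryo nc2 and 33.7 in the KO embryo ko4, against 429 to 2819 in the other 8. The embryo ko4 stood apart from the other KO embryos in the glucose genes. It had the single highest value of its group in 10 of the 32 genes and the single lowest in 16, so it was at an end of the range in 26 genes, against 7 to 12 for the other KO embryos. Among WT embryos, nc3 was lowest in 14 genes and nc2 was at an end of the range in 18. In a whole embryo, fewer cells of a type and less RNA per cell cannot be told apart, and the lineage markers moved with the group. The lineage markers *CDX2*, *POU5F1* and *GATA6* were detected in all 10 embryos, while *NANOG* was at 17.6 to 148 in WT and 0 to 7.39 in KO embryos. The summed counts of 15 trophectoderm markers were 28834 to 42021 in WT and 40445 to 55117 in KO embryos, those of 13 epiblast markers 3174 to 3780 and 1671 to 2122, and those of 11 primitive endoderm markers 9553 to 16789 and 5620 to 8320. These sums rest mostly on the genes with the most reads and are not scores of a lineage. The trophectoderm markers *KRT8* and *KRT18* had means of 17496 and 9100 in WT and 22437 and 15124 in KO embryos (limma adjusted p = 0.352 and 0.0394). *TFAP2C* fell (limma adjusted p = 0.0352) and *GATA3* did not pass (0.617). The primitive endoderm marker *FN1* had means of 10905 in WT and 4424 in KO embryos. *APOA1*, of the same list, rose from 233 to 699, and *LAMB1* rose as well. *GATA4*, *GATA6* and *COL4A1* did not pass (limma adjusted p = 0.755, 0.584 and 0.732). Of the trophectoderm markers, 5 were higher and 1 lower at a limma adjusted p of at most 0.05. For the epiblast markers these counts were 0 and 8, and for the primitive endoderm markers 2 and 4. Cumulus and granulosa markers, from the cells that surround the oocyte, summed to 50.4 to 158 in WT and 92.8 to 479 in KO embryos, and 0 of 10 passed that threshold with limma or DESeq2, 1 with edgeR and 2 at an unadjusted limma p under 0.05. Of those 10, *INHBA* had at most 3 reads in any embryo. The gene that passed with edgeR, *CYP11A1*, weighed most in these sums, with means of 45.6 in WT and 265 in KO embryos. It was at 1.64 in ko4, and the next highest KO mean of the 10 was 30.0, for *STAR*. The part of any of these in the values of the glucose genes was not tested.

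The glucose metabolism genes changed in both directions. In *SOX2* KO embryos 4 of them rose, *TPI1*, *PFKFB3*, *ALDOC* and *PFKL*, all from upper glycolysis, and 3 fell, *TKT* of the pentose phosphate pathway and *PDHA1* and *PDHB* of the pyruvate dehydrogenase complex. The other 25 did not pass a limma adjusted p of 0.05. With a fold change of at least 2 as well, 3 genes (9.38%) were called higher and 0 lower, against 8.93% and 1.16% of all genes tested. By the adjusted p alone, 4 genes (12.5%) were higher and 3 (9.38%) lower, against 10.4% and 3.2% of all genes tested. Most glucose genes have many reads, and among all genes with a mean of at least 100 the shares were 6.62% higher and 8.16% lower. The 24 glucose genes above that mean had 3 in each direction (12.5% each). The share called higher was thus near the background, and the shares of well covered genes were above theirs by 1 or 2 genes each. The 2 groups did not overlap in 3 genes (9.38%), against 9.17% of all genes tested. The median log2 fold change was 0.07 over the 32 genes, 0.25 over all genes tested and -0.11 over those with a mean of at least 100. With DESeq2 and edgeR on the recovered reads, 10 and 8 of the 32 genes passed the adjusted p, and both tools called the same 3 genes higher as limma, *TPI1*, *PFKFB3* and *ALDOC*, and 0 lower. Over all genes, DESeq2 called 1836 of 20112 higher and 238 lower, and edgeR called 1686 of 20056 higher and 299 lower. At an unadjusted limma p under 0.05 there were 16 of the 32, against 6500 of all 20056 genes. With quantile normalization, which moved the median of all genes to -0.02, 3 were called higher and 1, *PFKM*, lower. Over all 20056 genes, that fit called 629 higher and 447 lower, so its background of genes called higher was lower than in the main fit. The count of 7 genes past the adjusted p changed with single embryos, as did counts over all genes. It was 13 without nc3, 12 without ko4, 3 without ko3 and 4 without any one of nc1, nc2, nc4, ko1 and ko2, and 5 genes were called higher without ko4. Over all genes, 1792 were called higher in the main fit, 2035 without nc3, 3050 of 20005 without ko4 and 1178 without ko3. Without nc1, nc2, nc4, ko1 and ko2 these counts were 1088, 1051, 1079, 850 and 2024.

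**Figure D1:**
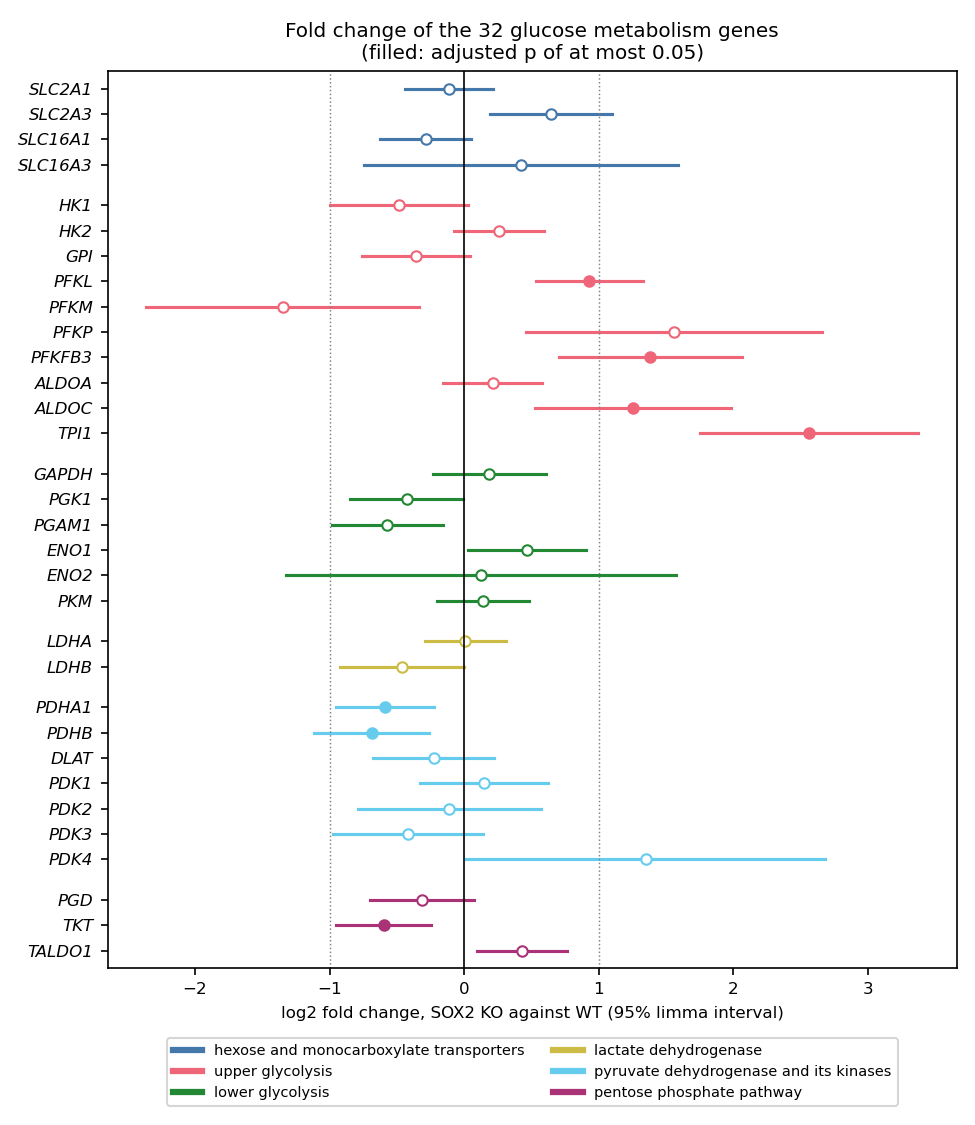
Log2 fold change of each of the 32 genes in *SOX2* KO against WT embryos (x axis, limma on log2(normalized read count + 1), bars: 95% intervals), grouped by role from transporters at the top to the pentose phosphate pathway at the bottom; dotted lines mark a 2-fold change. Filled points passed an adjusted p of 0.05. The filled points to the right are *PFKL*, *PFKFB3*, *ALDOC* and *TPI1*, and those to the left are *PDHA1*, *PDHB* and *TKT*.

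*SLC2A3* encodes GLUT3, a high-affinity glucose transporter. Its normalized read counts were 2929, 2453, 2382, 3419.7 and 4338 in WT and 4492, 5334, 5244, 3014 and 6325 in KO embryos. The KO embryos apart from ko4 were all above the highest WT embryo, and ko4 lay within the WT range. The difference did not pass (log2 fold change 0.65, standard error 0.22, limma adjusted p = 0.0521), and DESeq2 gave an adjusted p of 0.023 and edgeR one of 0.0775. Without ko4 the log2 fold change was 0.81 with a limma adjusted p of 0.00839, and without ko5 it was 0.54 with a limma adjusted p of 0.148. It passed in 2 of the 10 fits with an embryo left out. *SLC2A1*, which encodes the widely expressed transporter GLUT1, had 720.4, 697, 556, 497 and 525 in WT and 550.0, 569, 654, 428 and 563 in KO embryos. The groups overlapped, with nc1 and nc2 highest and ko4 lowest, and the 95% interval of its log2 fold change was -0.44 to 0.22 (limma adjusted p = 0.653).

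*SLC16A1* encodes MCT1, which carries lactate and pyruvate across the cell membrane. It was at 1069, 989, 641, 932 and 1221 in WT and 765, 712, 784, 785 and 849 in KO embryos (log2 fold change -0.29, standard error 0.16, limma adjusted p = 0.229). The KO embryos were tightly grouped within the WT range, with a coefficient of variation of 6.30% against 22.0% in WT. *SLC16A3*, which encodes the lactate exporter MCT4, was barely detected in either group, with 15 reads over the WT and 19 over the KO embryos, of which 10 came from ko1. Differences cannot be read at this depth.

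Hexokinase traps glucose in the cell as glucose phosphate. *HK1* had 134, 205, 212, 158 and 216 in WT and 179, 149, 148, 58.3 and 158 in KO embryos. The low value belongs to ko4, while the other KO embryos lay inside the WT range, and the test gave a limma adjusted p of 0.178. *HK2*, the inducible hexokinase of many growing cells, had 249.6, 338, 269, 312 and 251 in WT and 391, 271, 297, 416 and 338 in KO embryos, again with overlapping groups (log2 fold change 0.26, standard error 0.16, limma adjusted p = 0.269). *GPI*, which turns glucose phosphate into fructose phosphate, was at 610.0 to 749 in WT. It was at 477, 499, 478, 961 and 391 in KO embryos, so 4 KO embryos were below every WT embryo and ko4 was above all of them. Over all 10 embryos its difference did not pass (log2 fold change -0.36, limma adjusted p = 0.198), and without ko4 it was -0.57 with a limma adjusted p of 0.00934. That was the 1 of the 10 fits with an embryo left out in which *GPI* passed, and without ko5 it was -0.25 with a limma adjusted p of 0.44.

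Phosphofructokinase catalyses the committed step of glycolysis and is built from liver, muscle and platelet type subunits. The liver type gene *PFKL* had 194, 123, 158, 201 and 156 in WT and 267, 268, 427, 243 and 405 in KO embryos. Every KO embryo was above every WT embryo. The means were 167 ± 31.7 and 322 ± 86.5 (SD, n = 5 each), a 1.90-fold rise computed on log2(count + 1) (log2 fold change 0.93, standard error 0.19, limma adjusted p = 0.00457), just under the threshold of 2-fold. It kept an adjusted p of at most 0.05 in all 10 fits that left out 1 embryo. The muscle type gene *PFKM* did not pass the test, with 15.3, 29.7, 11.9, 21.0 and 26.6 in WT and 10.02, 6.60, 6.98, 1.64 and 19.6 in KO embryos. The embryo ko5 lay within the WT range and the other 4 KO embryos lay below it (log2 fold change -1.35, standard error 0.49, limma adjusted p = 0.067). In all, 124 reads of WT and 39 of KO embryos lie behind it. The platelet type gene *PFKP* had 6.11, 1.48, 6.96, 4.66 and 20.1 in WT and 20.0, 13.2, 32.6, 9.04 and 35.7 in KO embryos, on 56 and 98 reads. Only the WT embryo nc5 reached the KO range, and the difference did not pass (log2 fold change 1.56, standard error 0.53, limma adjusted p = 0.0539).

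*PFKFB3* encodes a bifunctional enzyme that makes the fructose bisphosphate isomer that activates phosphofructokinase. It had 11.4, 13.3, 15.9, 15.5 and 15.3 in WT and 69.0, 37.0, 26.7, 51.8 and 24.2 in KO embryos. The WT embryos were close together, with a coefficient of variation of 13.2%, and every KO embryo was above them, with a wider spread of 44.8%. The means were 14.3 ± 1.89 and 41.7 ± 18.7 (SD, n = 5 each; log2 fold change 1.38, standard error 0.33, limma adjusted p = 0.0107), on 86 reads in WT and 197 in KO embryos. The call held in all 10 fits without 1 embryo, with log2 fold changes of 1.18 to 1.55. In the RefSeq annotation of ARS-UCD2.0, its span overlaps that of *PRKCQ*, which was at 28.9 ± 10.4 in WT and 24.2 ± 10.3 in KO embryos (SD, n = 5 each; log2 fold change -0.28, limma adjusted p = 0.62). *PFKFB4*, another gene of this enzyme family, was outside the set of 32 and fell, from 172, 194, 177, 127 and 144 in the WT embryos to 91.3, 30.4, 75.6, 174 and 60.0 in the KO embryos. The KO embryo ko4 was within the WT range, and the other 4 were below it (log2 fold change -1.11, standard error 0.30, limma adjusted p = 0.0218). With each embryo left out in turn, *PFKFB4* was still called 7 times in 10.

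**Figure D2:**
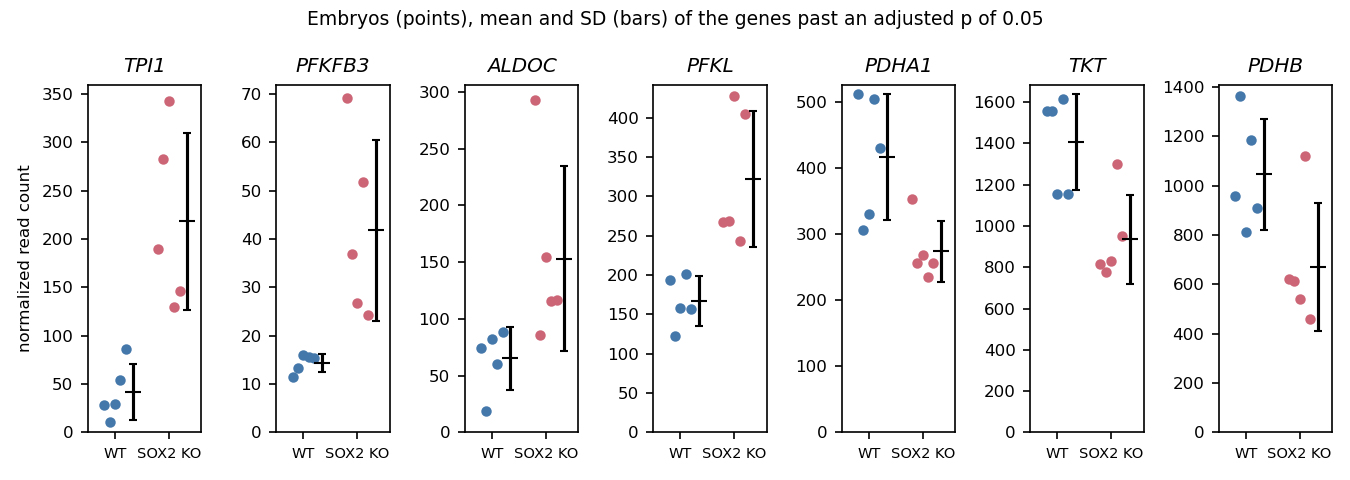
Normalized read counts (y axis, linear from 0, a scale of its own for each gene) of the 7 genes past an adjusted p of 0.05, ordered from the largest rise to the largest fall; points are embryos, and bars give the mean and SD of the 5 embryos of a group. All KO points lie above all WT points for *TPI1*, *PFKFB3* and *PFKL*, and the groups overlap for the other 4 genes.

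Aldolase splits fructose bisphosphate into the triose phosphates, and triosephosphate isomerase interconverts these. *TPI1*, the gene of the isomerase, showed the largest change of the 32 genes under limma. It had 28.2, 10.4, 29.8, 54.4 and 86.2 in WT and 189, 283, 343, 129.8 and 146 in KO embryos. The lowest KO embryo, ko4, was at 129.8 and the highest WT embryo, nc5, at 86.2, so the groups did not overlap. The means were 41.8 ± 29.3 and 218 ± 91.6 (SD, n = 5 each), a 5.91-fold rise on the same scale (log2 fold change 2.56, standard error 0.39, limma adjusted p = 0.000399; 95% interval 1.75 to 3.37). DESeq2 and edgeR on the recovered reads gave log2 fold changes of 2.37 and 2.23 (adjusted p = 0.000356 and 0.000483). It rested on 290 reads in WT and 964 reads in KO embryos. Genes such as *TPI1*, *GAPDH*, *LDHA*, *PGK1*, *PGAM1*, *ENO1* and *ALDOA* have processed pseudogene copies in mammalian genomes, and how reads with several matches were treated is not given in the sources used here. Their values are uncertain to that extent.

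The brain type aldolase gene *ALDOC* had 74.8, 19.3, 82.5, 60.6 and 88.5 in WT and 293, 85.8, 155, 116 and 116 in KO embryos. The groups touched, since ko2 was below nc5, and ko1 was far above the others. The means were 65.1 ± 27.7 and 153 ± 81.8 (SD, n = 5 each; log2 fold change 1.25, standard error 0.35, limma adjusted p = 0.024). The call was lost without nc2, without ko1 and without ko3, with limma adjusted p of 0.0505, 0.0844 and 0.0537. *ALDOA*, the main aldolase gene of most tissues, was at 1844, 2564, 1412, 2445 and 1680.4 in WT and 2093, 2277, 2159, 2521 and 2205 in KO embryos (log2 fold change 0.21, standard error 0.18, limma adjusted p = 0.418), and its KO embryos lay within the WT range.

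None of the 6 lower glycolysis genes passed the test at 0.05, from *GAPDH* to *PKM*, and 3 of them had an unadjusted p under 0.05. DESeq2 and edgeR on the recovered reads each passed 1 of them, *PGAM1*. *GAPDH*, the glyceraldehyde phosphate dehydrogenase often taken as a reference gene, was at 3814, 4680.4, 2323, 3749.9 and 4852 in WT and 4056, 4072, 4854, 3821 and 4685 in KO embryos. The WT embryo nc3 was the lowest of all 10, and the 95% interval of the log2 fold change was -0.24 to 0.61. *PKM*, pyruvate kinase, lay at 1436 to 2171 in WT and 1643 to 2228 in KO embryos (95% interval -0.21 to 0.48), so a 2-fold change of either gene falls outside the interval. *PGAM1*, phosphoglycerate mutase, had 2454, 2896, 1319.5, 2125 and 1673 in WT and 1187, 1327, 1216, 1828 and 1303 in KO embryos. Apart from nc3, every WT embryo was above the KO embryos other than ko4. The log2 fold change was -0.57 with a limma adjusted p of 0.0572, and DESeq2 and edgeR on the recovered reads gave adjusted p of 0.0314 and 0.0335.

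*PGK1*, the phosphoglycerate kinase that makes ATP in the payoff phase, was at 323 to 915 in WT and at 376 to 489.9 in KO embryos, a narrower range inside the WT one (log2 fold change -0.43, limma adjusted p = 0.148). *ENO1*, the widely expressed enolase, had 839, 1011, 791, 1375 and 1546 in WT and 1493, 1645, 1727, 927 and 1822 in KO embryos (log2 fold change 0.47, standard error 0.21, limma adjusted p = 0.131). Here 3 KO embryos were above every WT embryo, while ko1 and ko4 were not. The neuronal enolase *ENO2* had 26 reads over the WT and 28 over the KO embryos, too few to compare.

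Lactate dehydrogenase interconverts pyruvate and lactate, with subunits from *LDHA* and *LDHB*. *LDHA* had 622, 589, 568, 710.2 and 789 in WT and 645, 609, 642, 765 and 620.3 in KO embryos. The means were 656 ± 92.4 and 656 ± 62.6 (SD, n = 5 each), and the 95% interval of the log2 fold change was -0.29 to 0.31. *LDHB* had 1079.9, 1525, 636, 1417 and 1437 in WT and 884, 916, 1026, 539.7 and 950.1 in KO embryos. The low WT embryo nc3 lay among the KO values, ko4 was lowest of all, and the difference did not pass (log2 fold change -0.46, standard error 0.22, limma adjusted p = 0.15).

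The pyruvate dehydrogenase complex links glycolysis to the mitochondrial citrate cycle, and *PDHA1* and *PDHB* encode the subunits of its first enzyme. *PDHB* fell from 959, 1363, 813, 1187 and 909 in the WT embryos to 620.2, 614, 541, 1119.6 and 459 in the KO embryos. Again 4 KO embryos were below every WT embryo and ko4 was among the WT values. The means were 1046 ± 224 and 671 ± 259 (SD, n = 5 each; log2 fold change -0.69, standard error 0.21, limma adjusted p = 0.0324), and without ko4 the log2 fold change was -0.89 (limma adjusted p = 0.00205). *PDHA1* had 512, 307, 330.1, 505 and 430.3 in WT and 354, 256, 269, 235 and 257 in KO embryos. Its means were 417 ± 95.7 and 274 ± 46.3 (SD, n = 5 each; log2 fold change -0.59, standard error 0.17, limma adjusted p = 0.032), with ko1 reaching into the WT range. Its span overlaps that of *MAP3K15* in the ARS-UCD2.0 annotation, which was at 3.76 ± 1.27 and 7.34 ± 7.58 (SD, n = 5 each), and counting by strand is not stated. Both genes rested on thin margins. *PDHB* stayed past the adjusted p 3 times when each of the 10 embryos was left out in turn, without nc3, nc5 and ko4, with the highest at 0.105 without ko5. *PDHA1* stayed past it 4 times, without nc2, nc3, ko1 and ko4, with the highest at 0.0889 without nc1. *DLAT*, the gene of the second enzyme of the complex, was at 76.6 to 211 in WT and 104 to 127 in KO embryos (log2 fold change -0.23, limma adjusted p = 0.483).

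The PDK kinases phosphorylate and inactivate this complex. *PDK1* was at 50.7 to 81.6 in WT and 51.2 to 94.5 in KO embryos, *PDK2* at 13.2 to 41.2 and 18.4 to 30.4, and *PDK3* at 65.3 to 198 and 63.3 to 141. The groups overlapped in each of them, and none passed (limma adjusted p = 0.688, 0.845 and 0.287). *PDK4*, the kinase known to be induced by fasting, had 3 reads over all WT embryos and 18 over the KO embryos, 12 of them in ko1, and 0 in ko3 (limma adjusted p = 0.15). At this depth no difference between groups can be read for *PDK4*.

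*PDHA1*, *PGK1* and *PDK3* lie on the X chromosome of mammals, and the labels do not give the sex of the embryos. The embryos with the least *XIST*, nc2 and ko4, also had the lowest *PDHA1* value of their group, 307 and 235, and the lowest *PDK3* value, 65.3 and 63.3. *PGK1* was likewise lowest in ko4 of the KO embryos, at 376, but nc2, at 581, was within the WT range and nc3 was lowest, at 323. With log2 *XIST* added to the limma model, the log2 fold change of *PDHA1* was -0.62 (limma adjusted p = 0.0134), that of *PGK1* -0.42 (0.139) and that of *PDK3* -0.53 (0.0543). In that fit *SLC2A3*, *PGAM1* and *PFKP* passed as well, with limma adjusted p of 0.0268, 0.0247 and 0.0394, and 10 of the 32 genes did so in all. With the threshold on the fold change as well, it called 4 of the 32 higher and 0 lower, against 1784 and 251 of all 20056 genes. With the share of *RN18S1* reads as the covariate, *TPI1* and *PFKFB3* were the 2 genes that passed (limma adjusted p = 0.0119 and 0.0426), in a fit that called 137 genes higher and 83 lower among all genes, against 1792 and 232 without the covariate.

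In the pentose phosphate pathway, *TKT*, the transketolase of its non-oxidative branch, fell. It was at 1555, 1559, 1156, 1614 and 1153 in WT and 816, 778, 829, 1299.5 and 952 in KO embryos. As with *GPI* and *PDHB*, the KO embryos other than ko4 were below every WT embryo. The embryo ko4 lay within the WT range, as for *PDHB*, whereas for *GPI* it lay above that range. The means were 1407 ± 232 and 935 ± 214 (SD, n = 5 each; log2 fold change -0.60, standard error 0.17, limma adjusted p = 0.0257). With 1 embryo left out at a time it stayed past the adjusted p 3 times in 10, without nc3, nc5 and ko4, and reached 0.0697 without ko1. *TALDO1*, the transaldolase of the same branch, had 1073, 721, 906, 1014 and 944 in WT and 1044, 1261, 1193, 1658 and 1151 in KO embryos. Its direction was opposite to that of *TKT*, with ko1 inside the WT range and the other KO embryos above it, and it did not pass (log2 fold change 0.43, standard error 0.16, limma adjusted p = 0.0749; DESeq2 adjusted p = 0.0494). *PGD*, the phosphogluconate dehydrogenase of the oxidative branch, was at 476 to 992 in WT and 522 to 778 in KO embryos (log2 fold change -0.31, standard error 0.19, limma adjusted p = 0.247).

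**Figure D3:**
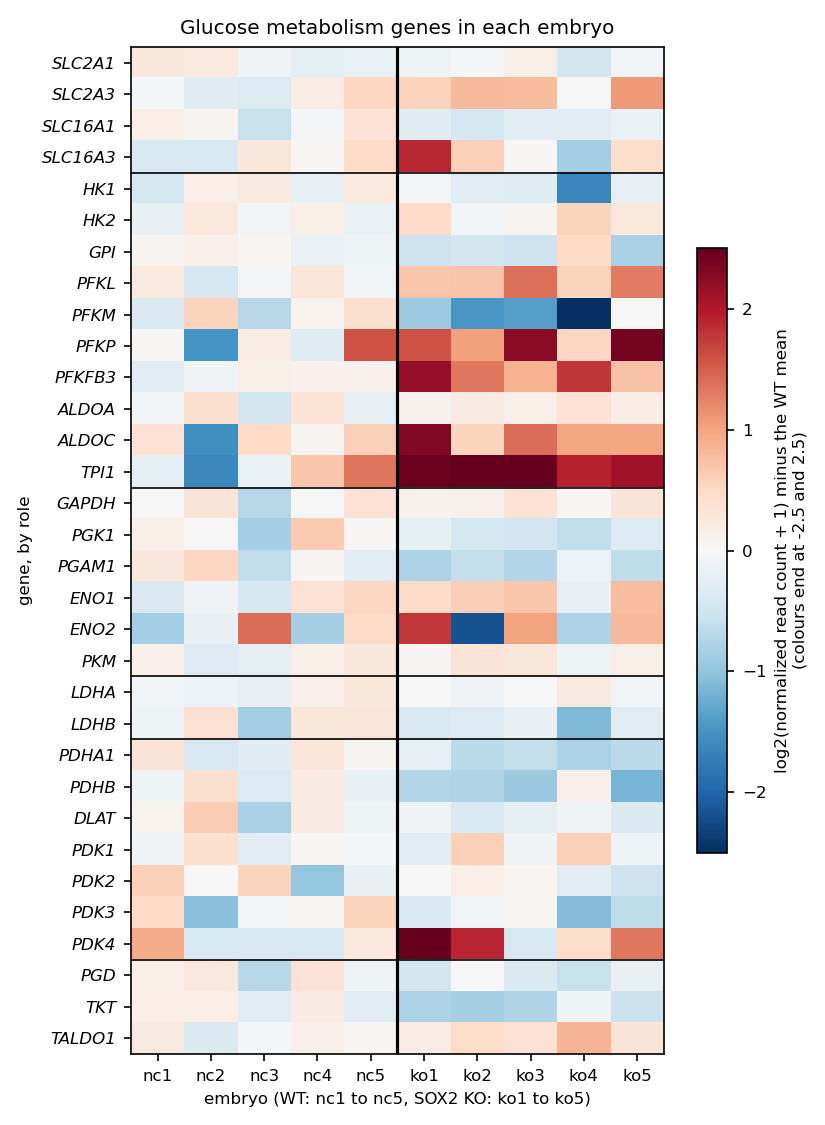
Heat map of the 32 genes (rows, by role) in the 10 embryos (columns; WT nc1 to nc5 left of the line, *SOX2* KO ko1 to ko5 right of it), coloured by log2(normalized read count + 1) minus the mean of the WT embryos. The rows of *TPI1*, *PFKFB3* and *PFKL* are red in all 5 KO embryos, while *GPI* is red in ko4 and blue in the other KO embryos; *ENO2*, *SLC16A3* and *PDK4* have few reads.

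Several steps are served by more than 1 gene, and the balance between them was compared as a log2 ratio within each embryo, which apart from the pseudocount of 1 does not depend on the scaling of that embryo. Reads were not set per transcript length, so a ratio is compared between groups and not read as a level. Of 8 ratios, 0 passed after Benjamini-Hochberg adjustment over the 8, and 3 had an unadjusted p under 0.05. The smallest p that 5 embryos against 5 allow is 0.00794, which alone becomes 0.0635 over 8 ratios. The *PFKM* to *PFKP* ratio reached that smallest p, with log2 ratios of 1.19, 3.63, 0.70, 1.96 and 0.39 in WT and -0.93, -0.90, -2.07, -1.92 and -0.83 in KO embryos. It was above 0 in every WT embryo and below 0 in every KO embryo, with means of 1.57 ± 1.29 and -1.33 ± 0.61 (SD, n = 5 each) and a gap of -2.91 (two-sided exact permutation test, p = 0.00794, adjusted 0.0635). Both genes have few reads, as given above.

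The *SLC2A1* to *SLC2A3* ratio was -2.02, -1.81, -2.10, -2.78 and -3.05 in WT and -3.03, -3.23, -3.00, -2.81 and -3.49 in KO embryos. The WT embryo nc5 lay within the KO range and nc4 just above it, and the difference was -0.76 (two-sided exact permutation test, p = 0.0397, adjusted 0.106). The *HK1* to *HK2* ratio differed by -0.74 (two-sided exact permutation test, p = 0.0317, adjusted 0.106), from -0.63 ± 0.34 in WT to -1.38 ± 0.81 in KO embryos (SD, n = 5 each). Its KO mean leaned on ko4 at -2.81, and without ko4 the difference was -0.39. The *LDHA* to *LDHB* ratio differed by 0.47 (two-sided exact permutation test, p = 0.167, adjusted 0.267) and the *ALDOA* to *ALDOC* ratio by -1.04 (two-sided exact permutation test, p = 0.135, adjusted 0.267). The ratios of *PFKL* to *PFKP*, *SLC16A1* to *SLC16A3* and *ENO1* to *ENO2* had p of 0.254, 0.214 and 0.722 by the same exact permutation test.

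**Figure D4:**
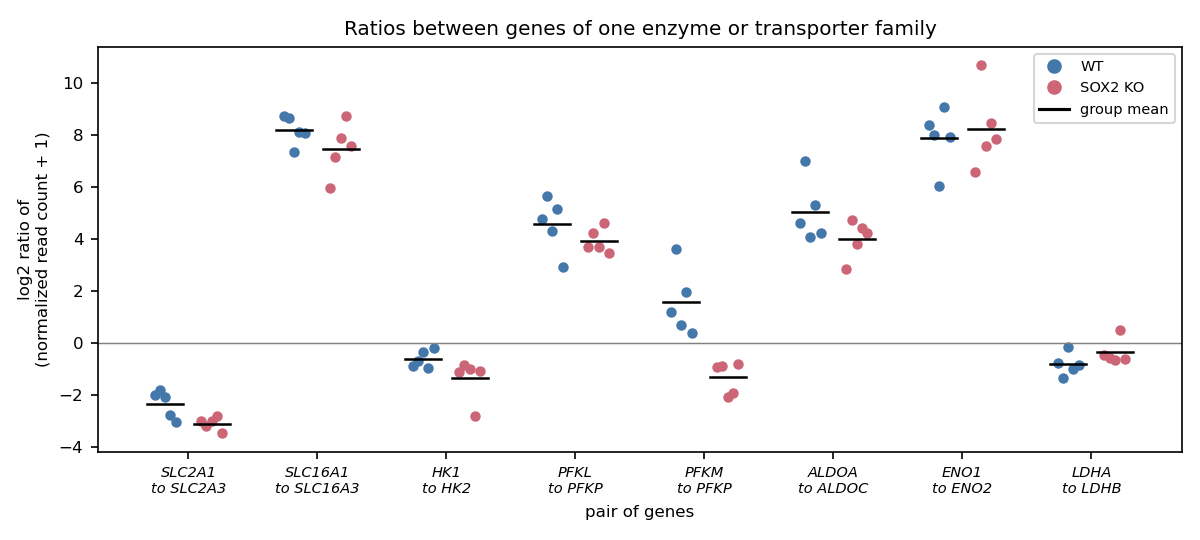
Log2 ratio of (normalized read count + 1) between 2 genes of one family in each embryo (y axis), for the 8 pairs on the x axis; blue points are WT embryos, red points *SOX2* KO embryos and lines the group means. The groups are apart in the *PFKM* to *PFKP* ratio and overlap in the other 7.

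Across the 10 embryos, after the group mean of each gene had been removed, log2 values were correlated for 300 pairs of members with a mean of at least 50. Of these, 191 were above 0 and 109 below, with a median of 0.16, and other genes were not compared. At the upper end, the log2 values of *SLC2A3* and *ENO1* had a Pearson correlation of 0.92, those of *SLC16A1* and *GAPDH* of 0.89 and those of *GAPDH* and *LDHB* of 0.87. *ALDOA* and *DLAT* likewise had 0.87. *HK1* ran against *TALDO1*, *TKT* and *GPI*, with -0.85, -0.83 and -0.83. Among KO embryos, ko4 was lowest in *HK1*, at 58.3, and highest in *TALDO1*, *TKT* and *GPI*, at 1658, 1299.5 and 961. Correlations without ko4 were not computed, so how far these values rest on that embryo was not tested. These named pairs are the strongest in each direction. They share the 10 libraries and their scaling and are given as a description. Summed over the 32 genes, the members made up 0.883% to 1.21% of the reads outside *RN18S1* in WT and 0.988% to 1.22% in KO embryos. The lowest WT share belonged to nc3 and the lowest KO share to ko4.

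Of 115 other genes of glucose metabolism, its neighbouring pathways and its regulators, 111 were tested. Of these, 9 were higher and 3 lower at a limma adjusted p of at most 0.05 (7 and 2 with the threshold on the fold change), and their median log2 fold change was 0.07. These are 8.11% and 2.70% (6.31% and 1.80%), against 10.4% and 3.2% (8.93% and 1.16%) of all genes tested, so the counts were near the background. *SLC16A7*, which encodes the pyruvate and lactate transporter MCT2, rose from 39.7, 7.42, 18.9, 59.1 and 53.1 in the WT embryos to 236, 184, 129, 76.4 and 234 in the KO embryos. The groups did not overlap (log2 fold change 2.44, standard error 0.42, limma adjusted p = 0.00126), and the call held in all 10 fits that left out 1 embryo. Of 18 tricarboxylic acid cycle genes, 0 passed with limma or DESeq2 and 1 with edgeR, *SDHD*, which is named after its values were seen. Of these 18, 5 had an unadjusted limma p under 0.05, against 6500 of all 20056 genes, and 14 had a log2 fold change below 0. Below 0 were also 2821 of 4548 well covered genes (mean of 100 or more) and 7444 of the 20056 genes tested. Whether the 14 exceed the share of well covered genes was not tested. Of 9 further pentose phosphate genes and 7 gluconeogenesis genes, 0 passed with limma, DESeq2 or edgeR, with 3 and 4 at an unadjusted limma p under 0.05. The same held for the other 5 pyruvate dehydrogenase genes, with 2 at an unadjusted limma p under 0.05.

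Among the other transporters, the intestinal type sugar transporters *SLC2A2* and *SLC5A1* and the lactate transporter *SLC16A8* were called higher on very few reads. *SLC2A2* had 0 reads in every WT embryo and 5, 3, 4, 0 and 3 in the KO embryos. With each WT embryo set at a floor of 3 reads, the KO mean was 1.28-fold higher. This is not a lower bound, as ko2 and ko5 were at that floor and ko4 had 0 reads. *SLC5A1* had 3 reads over the WT and 34 over the KO embryos, and *SLC16A8* had 2 and 21. In glycogen, hexosamine and polyol metabolism, *GFPT1*, the entry enzyme of the hexosamine pathway, rose from 145 ± 49.6 to 245 ± 55.6 (SD, n = 5 each; log2 fold change 0.79, standard error 0.22, limma adjusted p = 0.0249). *SORD*, sorbitol dehydrogenase, fell from 824 ± 162 to 533 ± 157 (SD, n = 5 each; log2 fold change -0.65, standard error 0.18, limma adjusted p = 0.0253), with ko4 at 802 the highest KO embryo. With 1 embryo left out at a time, *GFPT1* stayed past the adjusted p 5 times in 10 and *SORD* 4 times, with limma adjusted p of up to 0.0786 and 0.0853, both without ko5. The muscle glycogen phosphorylase *PYGM* and the muscle type mutase *PGAM2* were called higher as well, by 2.03 and 1.73 on the log2 scale (limma adjusted p = 0.029 and 0.0465), and for *PGAM2* neither DESeq2 nor edgeR passed (adjusted p = 0.192 and 0.221). With 1 embryo left out at a time, *PYGM* passed 5 times in 10, *PGAM2* 3, *SLC2A2* 3, *SLC5A1* 8 and *SLC16A8* 4.

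Of 21 regulators, *MLXIP* and *MYC* rose and *MYCN* fell. *MLXIP*, a transcription factor that responds to glucose phosphate, had 119.8, 87.5, 176, 124 and 100.3 in WT and 192, 197, 198, 174 and 287 in KO embryos. The groups overlapped only through nc3 and ko4 (log2 fold change 0.80, standard error 0.20, limma adjusted p = 0.0131), and the adjusted p stayed at or under 0.05 in all 10 fits that left out 1 embryo. *MYC* and *MYCN*, of the MYC family, moved by 1.81 and -1.16 on the log2 scale (limma adjusted p = 0.0206 and 0.0213, respectively). Both stayed past the adjusted p 7 times in 10 with 1 embryo left out.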

How the data were processed

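Single early blastocysts (5 WT and 5 *SOX2* KO) were sequenced by Smart-seq2, without molecular identifiers. Reads were trimmed with Trimmomatic, aligned by HISAT2 (genome ARS-UCD1.2) and summarised per gene with featureCounts by the authors. The deposited values are normalized signal, read counts divided by DESeq2 size factors. The annotation release, strand setting and rule for multi-mapped reads are not given in the sources used here. In the table, 100% of an embryo's values were integer multiples of its smallest step (tolerance 1e-06), so reads were recovered. Embryos are named as in the column headers (nc1 to nc5, ko1 to ko5), which were matched to the labels by group only.

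Genes with a mean of at least 1 (20056 of 20112) were tested with limma 3.58.1 (lmFit, eBayes with trend) on log2(value + 1), with Benjamini-Hochberg adjustment over all genes tested. A gene was called where its adjusted p was at most 0.05 and its fold change 2 or more, or 0.5 or less. DESeq2 1.42.0 and edgeR 4.0.16 (quasi-likelihood) on the recovered reads, other pseudocounts, scalings, filters, weights and covariates, and leaving out embryos were alternatives, and the fits were tested on simulated data. Ratios between genes were compared by exact permutation tests in scipy 1.17.1. Read totals and floors cover counting error only.

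The members and gene lists were chosen with earlier results of these data known. All 32 members are named, those past the adjusted p and the paired family members per embryo. Other pathway genes are named where their adjusted p was at most 0.05, and 4 of the 115 were not found in the table. Transcript lengths and sequences were not used here, so levels are not compared between genes. Overlapping genes were taken from the RefSeq annotation of ARS-UCD2.0, by name only.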

Additional observations from a re-analysis of the deposited data

Results flagged for a closer look

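Across the 32 genes and 8 ratios, each group of 5 embryos was examined for an embryo whose gap to the nearest other embryo took up most of the range of its group (Dixon's criterion at 95%). Of 80 groups, 8 had such an embryo, and chance alone would give about 4. All 8 were in the *SOX2* KO group, and 7 of them concerned the embryo ko4, which also had little *XIST* (33.7, with 429 to 2819 in the 8 embryos other than nc2 and ko4).

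In ko4, normalized read counts of *GPI* were 961 against 391 to 499 in the other 4 KO embryos, those of *PGAM1* 1828 against 1187 to 1327, those of *PDHB* 1119.6 against 459 to 620.2 and those of *LDHA* 765 against 609 to 645. *HK1* was low in the same embryo, at 58.3 against 148 to 179. The log2 ratio of *HK1* to *HK2* was -2.81 in ko4 against -1.12 to -0.85 in the other KO embryos, and that of *LDHA* to *LDHB* was 0.50 against -0.68 to -0.45. The remaining embryo was ko1, with *PDHA1* at 354 against 235 to 269. What sets ko4 apart was not tested.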

How the results depend on the processing

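*TPI1* and *PFKFB3* stayed past the adjusted p in every setting run. With main counts of 3 genes called higher, 0 called lower and 7 past the adjusted p, the number past the adjusted p became 12 with sample quality weights, 2 with the *RN18S1* share as covariate and 12 without nc2 and ko4 (chosen after seeing the data). Over all genes, 3229, 137 and 2237 were called higher in those fits, against 1792 in the main fit. *PFKM* made 1 gene called lower after rescaling to equal totals and with quantile normalization. Over all genes, those fits called 312 and 447 lower, against 232 in the main fit. Leaving out 1 embryo at a time gave 3 (without ko3) to 13 (without nc3) genes past the adjusted p, 2 to 5 called higher and 0 to 1 called lower, with 12 past the adjusted p and 5 called higher without ko4. Over all genes, these fits called 754 (without ko5) to 3050 (without ko4) higher. Rescaling moved the median log2 fold change of all genes from 0.25 to between -0.02 and 0.34.

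Directions turned for *ENO2*, from 0.12 to -0.35 with a pseudocount of 0.1, -0.58 with quantile normalization, -0.71 with the *RN18S1* covariate and -0.29 to 0.70 without 1 embryo. They turned for *LDHA*, from 0.01 to -0.12 with equal totals, -0.043 with weights, -0.00021 in DESeq2, -0.081 in edgeR, -0.085 without nc2 and ko4 and -0.049 to 0.077 without 1 embryo. *SLC16A3* turned to -0.58 with quantile normalization, *DLAT* to 0.051 with the *RN18S1* covariate and *SLC2A1* to 0.035 without nc2 and ko4, and *PDK2* ranged from -0.35 to 0.039 without 1 embryo. The log2 ratio of *SLC16A1* to *SLC16A3* turned to 0.37 with quantile normalization, and that of *ENO1* to *ENO2* ranged from -0.27 to 0.75 without 1 embryo. The cause was not tested. *ENO2*, *SLC16A3* and *PDK4* have few reads, which limits any comparison of them.

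No paired analysis was possible because KO embryos are numbered otherwise in the table than in the labels, so a number could not be tied to a labelled embryo.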
